A study of Mus musculus with 12 samples.

Results

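Reads from the mitochondrial genome were followed through 12 small-RNA libraries of mouse embryonic stem cells. The genes described are the 37 of the 55450 genes in the GENCODE M21 annotation whose symbol starts with mt-, chosen by name alone: 13 mRNAs, 22 tRNAs and 2 rRNAs on chromosome M (GRCm38). They lie between base 1 and base 15422 of that chromosome. The cells were grown on gelatin with serum and leukemia inhibitory factor, and the cloned RNA was gel-selected for a length of 18 to 75 nt. TT-FHAgo2 (here the tagged line, which makes FLAG- and HA-tagged Ago2) and TT-Ago2 (the untagged line) are clonal lines that were kept in 0.1 µg/mL doxycycline and then brought to 2.5 µg/mL, which per the labels gives the wild-type level of Ago2. Each line gave 2 libraries after FLAG immunoprecipitation (tagged IP, untagged IP) and 2 of total RNA (tagged input, untagged input), all made by a circularization protocol that clones RNA whatever its 5′ end. The titles give the 2 libraries of a group different codes, called A (longest read 50 nt) and B (longest read 51 nt) here. Another 4 single libraries came from a kit that clones only RNA with a 5′ phosphate (longest read 40 nt): TT-FHAgo2 cells with 2.5 µg/mL doxycycline, TT-FHAgo2 cells without doxycycline, wild-type cells, and Dicer-null cells, the last 3 without doxycycline. By the series' design text some of these cells have no Ago proteins. The labels do not say which Argonaute genes the TT lines lack. Nothing in the labels says that libraries of a group came from separate cultures, so p-values measure only the spread between these libraries, which may be technical. Cloning protocol, read length and title code change together between the 8 and the 4 libraries, so differences between these sets are given as description and their sources cannot be told apart.

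The mitochondrial genome is read from both strands into long precursors in which tRNAs stand between the rRNAs and mRNAs. Cutting at the 5′ and 3′ ends of the tRNAs, by the mitochondrial RNase P and by Elac2, frees the RNAs on either side, and the enzyme Trnt1 then adds CCA, which is not encoded, to each tRNA. The mRNAs encode subunits of the respiratory chain and of ATP synthase, and the rRNAs form the mitochondrial ribosome. Fragments of tRNAs are found in small-RNA libraries of many cells, and the end of a fragment tells which part of the tRNA it came from.

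The most abundant exact read of the 8 tRNAs and of the 2 rRNAs with the highest mean level is printed first, since the reads show where fragments begin and end. Capitals mark the first 3 bases of the gene, so a read without capitals begins inside it. The 50 nt reads have the longest length of the A libraries and may be cut short by it. The 40 nt read of mt-Rnr2 has the longest length of the 4 single libraries.
mt-Ts2 (serine, AGY codons), bases 1 to 26, chrM 11613 to 11638, + strand: AAGaaagattgcaagaactgctaatt
mt-Tv (valine), bases 17 to 66, chrM 1041 to 1090, + strand: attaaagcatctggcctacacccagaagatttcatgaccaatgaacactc
mt-Te (glutamate), bases 1 to 29, chrM 14111 to 14139, - strand: GTTtctgtagttgaattacaacgatgatt
mt-Ts1 (serine, UCN codons), bases 1 to 21, chrM 6918 to 6938, - strand: GAGaaagacatataggatatg
mt-Tl2 (leucine, CUN codons), bases 17 to 66, chrM 11687 to 11736, + strand: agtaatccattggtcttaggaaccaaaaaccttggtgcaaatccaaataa
mt-Tm (methionine), bases 18 to 67, chrM 3862 to 3911, + strand: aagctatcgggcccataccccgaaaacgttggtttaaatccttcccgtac
mt-Ti (isoleucine), bases 1 to 27, chrM 3706 to 3732, + strand: AGAaatatgtctgataaaagaattact
mt-Tw (tryptophan), bases 36 to 53, chrM 4985 to 5002, + strand: agccctaagaaaacacac
mt-Rnr2 (16S rRNA), bases 1 to 40, chrM 1094 to 1133, + strand: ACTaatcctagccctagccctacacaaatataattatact
mt-Rnr1 (12S rRNA), bases 1 to 18, chrM 70 to 87, + strand: AAAggtttggtcctggcc

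Reads that match a tRNA to its last base and go on with C, CC or CCA were counted apart from the exact reads. The most abundant of them for the same 8 tRNAs show the other end of the molecule, and here capitals mark the added CCA.
mt-Ts2, bases 28 to 59, chrM 11640 to 11671, + strand: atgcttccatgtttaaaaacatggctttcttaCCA
mt-Tv, bases 55 to 69, chrM 1079 to 1093, + strand: caatgaacactctgaCCA
mt-Te, bases 34 to 69, chrM 14071 to 14106, - strand: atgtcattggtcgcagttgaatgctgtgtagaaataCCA
mt-Ts1, bases 35 to 69, chrM 6870 to 6904, - strand: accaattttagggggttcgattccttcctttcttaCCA
mt-Tl2, bases 37 to 71, chrM 11707 to 11741, + strand: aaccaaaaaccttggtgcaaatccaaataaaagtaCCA
mt-Tm, bases 46 to 69, chrM 3890 to 3913, + strand: ttggtttaaatccttcccgtactaCCA
mt-Ti, bases 53 to 69, chrM 3758 to 3774, + strand: aagccctcttatttctaCCA
mt-Tw, bases 36 to 67, chrM 4985 to 5016, + strand: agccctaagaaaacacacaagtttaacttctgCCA

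The libraries held 14474875 to 78762632 reads, and levels are given as CPM (counts per 1000000 reads of the library). A gene with no read could still have had up to 3 reads, or 0.0381 to 0.207 CPM, by counting error alone. The reads carry no molecular identifiers, so this limit and all intervals cover counting error only. The libraries differed in what else they held: reads of miRNA hairpins were 58.3% and 50.7% in the tagged IPs, 9.19% and 13.1% in the untagged IPs, and 1.80 to 3.36% in the inputs. In the single libraries the hairpin share was 10.3% with doxycycline, 1.3% without it, 21.1% in wild-type and 1.42% in Dicer-null cells. The 10 hairpins fixed as embryonic stem cell markers summed to 205 to 306862 CPM and the 6 fixed as fibroblast markers to 0.444 to 592 CPM, lowest in Dicer-null cells for both lists, and the stem cell sum was above the fibroblast sum in each library.

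Exact, sense reads of the 37 genes were a small share of every library. They were 0.0600% and 0.0495% of reads in tagged IP A and B, 0.237% and 0.162% in untagged IP A and B, 0.329% and 0.117% in tagged input A and B, and 0.338% and 0.125% in untagged input A and B. The share was 0.759% with doxycycline, 0.795% without it, 0.612% in wild-type and 0.926% in Dicer-null cells. Both tagged IPs were thus below every other library, and both A inputs were above both B inputs. The tagged IPs were 0.274 times the untagged IPs (0.253 within code A, 0.306 within code B) and 0.246 times their own inputs (0.183 and 0.424). Neither pair of groups overlapped, and the two-sided exact permutation test of each gave p = 0.333, the smallest p that 2 against 2 libraries allow. The untagged IPs, at 0.863 times their inputs (0.702 and 1.3), and the tagged inputs, at 0.962 times the untagged ones (0.971 and 0.937), overlapped with the group they were set against (exact permutation p = 1 and p = 0.667). With the tRNA reads that carry added C, CC or CCA counted, the untagged IPs were 1.42 times their inputs (1.11 and 2.0) with no overlap, so the direction turned. Set against reads outside miRNA hairpins, the tagged IPs were 0.546 times the untagged IPs and 0.534 times their inputs, and with each distinct sequence counted once 0.794 and 0.674 times. Single libraries mattered: the tagged IPs were 0.469 times their inputs without tagged input A, the untagged IPs 1.60 times theirs without untagged input A, and the tagged inputs 1.79 times the untagged ones without untagged input A, 1.42 times without tagged input B and 0.505 times without tagged input A. In these bulk libraries fewer cells with an RNA and less of it per cell cannot be told apart. Of the exact mitochondrial reads, 4.06 to 12.8% also matched an annotated gene outside the set.

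**Figure D1:**
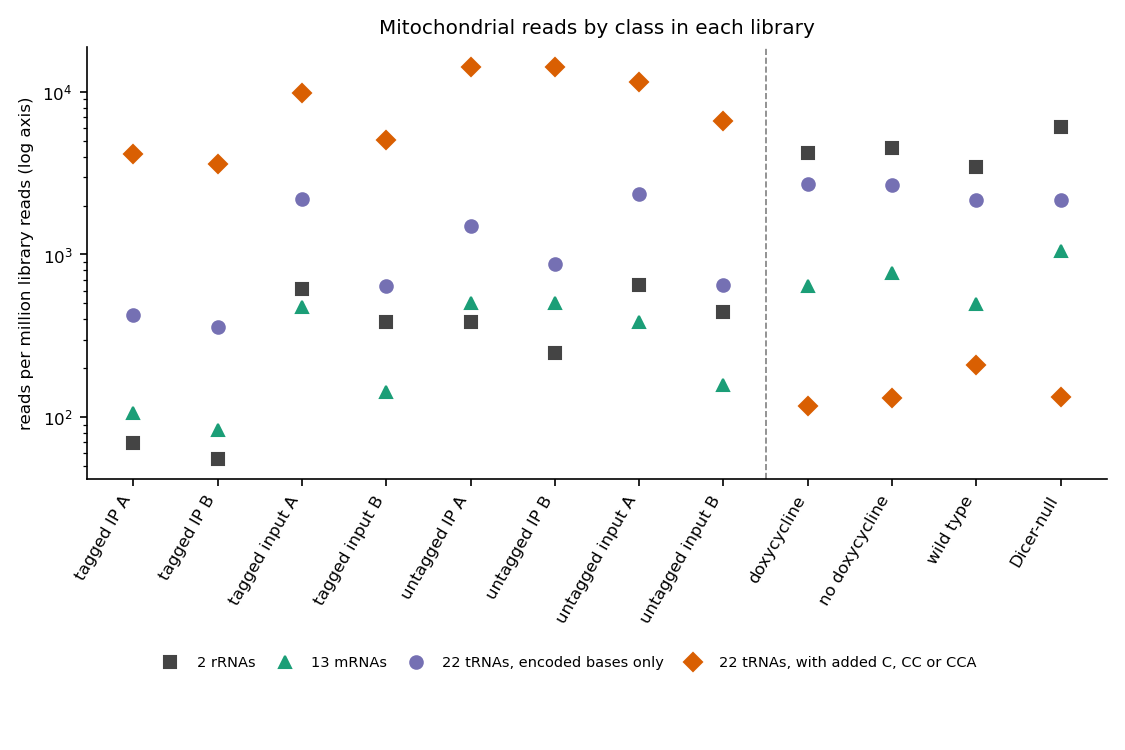
CPM (log axis) of the rRNAs, the mRNAs, the tRNAs over their encoded bases and the tRNAs with added C, CC or CCA, 1 point per library and class; the dashed line parts the 8 libraries cloned without need of a 5′ phosphate (left) from the 4 cloned by it (right). Reads with added bases run from 3584 to 14290 CPM on the left and from 118 to 210 CPM on the right, while the rRNAs are highest on the right.

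The plot of classes by library shows tRNA 3′ ends as the main mitochondrial RNA of the 8 libraries, and tRNA 5′ ends and rRNA as that of the 4. The tRNA reads with added C, CC or CCA reached 4154 and 3584 CPM in the tagged IPs, 14290 and 14166 CPM in the untagged IPs, 9884 and 5086 CPM in the tagged inputs and 11575 and 6640 CPM in the untagged inputs. In the single libraries they were at 118 CPM with doxycycline, 132 CPM without it, 210 CPM in wild-type and 133 CPM in Dicer-null cells. Set against the exact tRNA reads of the same library they were 4.50 to 16.3 times as many in the 8 libraries and 0.0432 to 0.0971 times as many in the 4, with no overlap. The rRNAs went the other way, with 55.3 to 650 CPM in the 8 libraries and 3471 to 6062 CPM in the 4. The mRNAs were closer, at 83.7 to 506 CPM and 493 to 1050 CPM.

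The ends of the tRNA fragments differed in the same way. Of all tRNA reads, 81.8 to 94.2% had added bases at the 3′ end in the 8 libraries, against 4.14 to 8.85% in the 4. Reads that began at base 1 of the tRNA made up 0.242 to 2.79% in the 8 libraries and 75.7 to 88.8% in the 4. Each of the 22 tRNAs had more reads with added bases than reads from base 1 in each of the 8 libraries. In the 4 libraries the order was turned for 15 tRNAs with doxycycline, 13 without it, 12 in wild-type and 14 in Dicer-null cells. These counts take exact reads from base 1 and so miss mt-Th, whose reads began 1 base ahead of its annotated start. There such mt-Th reads had 32.6 to 39.2 CPM, against 2.66 to 8.65 CPM with added bases. In the TT lines the counts also miss mt-Tr reads across an adenine run longer than annotated, described below. The added bases were the full CCA in 58.6 to 86.9% of such reads, CC in 12.3 to 35.9% and C alone in 0.752 to 6.29%. No library held a read 1 or 2 bases shorter than its longest read. Reads with CCA followed by A or AG, the first bases of the 3′ adapter, at the end of the read were 0.397 to 2.14% as many as the reads with added bases in the 8 libraries and 3.66 to 4.09% in the 4, and were not counted.

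**Figure D2:**
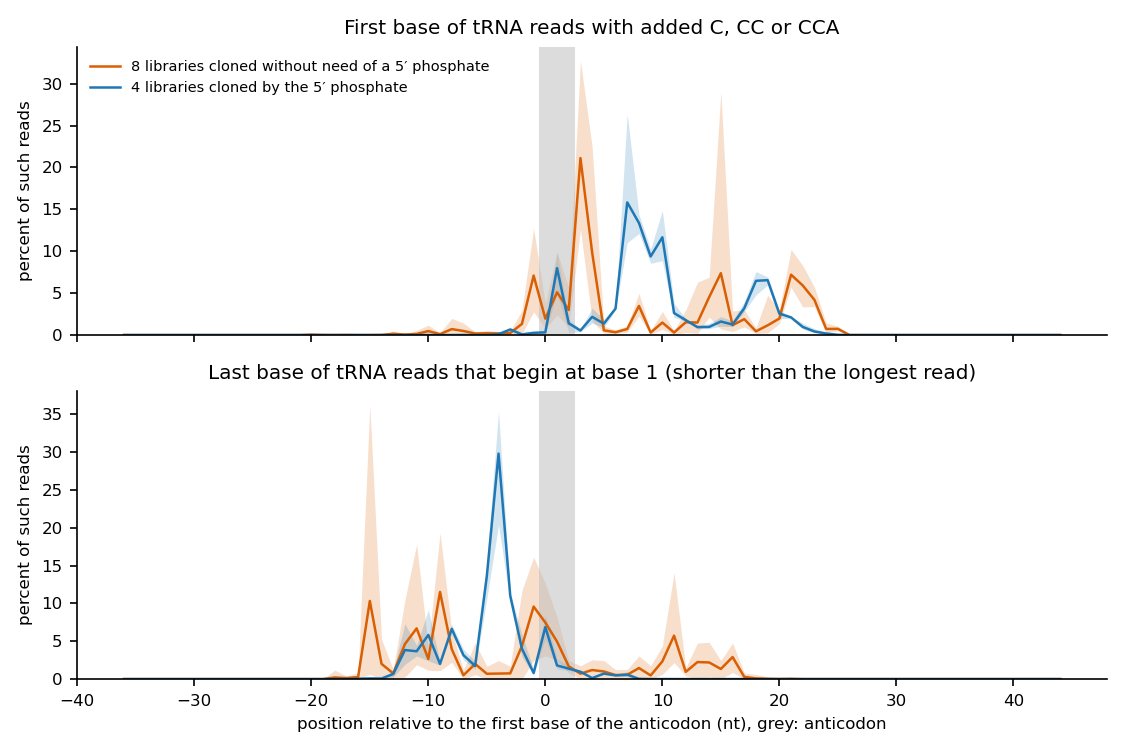
Top: first base of tRNA reads with added C, CC or CCA. Bottom: last base of tRNA reads that begin at base 1 and are shorter than the longest read. The x axis gives the distance in nt from the first base of the anticodon (grey: the anticodon), the y axis the percent of such reads, lines the mean over the 8 or the 4 libraries and bands the lowest to highest library. At the top 23.5 to 63.8% of reads in the 8 libraries and 9.72 to 16.6% in the 4, which lack reads of 38 or 39 nt, begin in the anticodon loop. At the bottom the peak of the 4 libraries lies 4 bases before the anticodon and is mostly 1 read of mt-Ts2.

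Where the fragments were cut inside the tRNA also differed between tRNAs. The plot of fragment ends places cuts by their distance to the anticodon, the 3 bases that pair with the codon, in the loop at one end of the molecule. Reads with added bases began in the anticodon loop in 63.8% and 60.9% of cases in the tagged IPs, 57.5% and 57.2% in the untagged IPs, 47.1% and 31.0% in the tagged inputs and 48.5% and 23.5% in the untagged inputs. The 4 IPs were above the 4 inputs. These shares pool the 22 tRNAs, whose mix differed between libraries. Of the reads with added bases, mt-Te gave 30.9 to 50.6% in the IPs, and mt-Tm 24.8 and 38.0% in tagged and untagged input B. How far the mix sets the difference was not tested. The pooled share was 9.72 to 16.6% in the single libraries, which cannot be set against the others. They hold no reads of 38, 39 or over 40 nt, lengths that many reads from the loop to the added CCA have. The most frequent first base lay within the anticodon or the 3 bases after it for 4 of the 22 tRNAs, 4 or more bases after it for 15, and before it for 3. The 4 were mt-Te from base 34, mt-Tf and mt-Tl2 from base 37 and mt-Tw from base 36. In mt-Te base 34 held 56.9 to 60.5% of such reads in the 4 IPs and 52.5 to 68.0% in the 4 inputs, which overlapped. The highest mean shares of a single first base belonged to mt-Tn at base 55 (77.9% over the 8 libraries), mt-Tt at base 30 (75.9%) and mt-Tp at base 52 (75.7%).

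Length separated the fragments too. Reads from base 1 had a median and a most frequent length of 26 nt in each of the 4 single libraries, where 20.7 to 35.7% of those shorter than the longest read had that length. They ended 4 bases before the anticodon in 35.4% and 34.9% of cases with and without doxycycline, 20.4% in wild-type and 28.5% in Dicer-null cells, against 0 to 2.45% in the 8 other libraries. The mt-Ts2 read of bases 1 to 26, printed above, gave most reads of this length and this end in the single libraries. It had 24089 reads with doxycycline, 21984 without it, 10772 in wild-type and 36425 in Dicer-null cells. Neither the length nor the end thus describes the 22 tRNAs at large. The reads with added bases were most often 39 nt long in 6 of the 8 libraries, among them all 4 IPs. The mt-Te read from base 34, printed above, gave most reads of 39 nt there, at 690 to 2751 CPM. In tagged input B and untagged input B the most frequent length was 27 nt, and mt-Tm read from base 46 gave most reads of it. That mt-Tm read, printed above, stood at 838 and 1740 CPM there and at 6.61 to 45.8 CPM in the other 6 libraries. In the single libraries, which hold no reads of 38 or 39 nt, reads with added bases peaked at 34 to 35 nt.

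The tRNAs differed in which of these ends was read. mt-Ts2, the tRNA without a D arm that reads AGY serine codons, had the highest mean of exact reads over the 12 libraries and was first in both tagged inputs and the 4 single libraries, but not in the IPs or the untagged inputs: 3.47 and 3.59 CPM in the tagged IPs, 16.3 and 15.3 CPM in the untagged IPs, 422 and 142 CPM in the tagged inputs, 298 and 95.5 CPM in the untagged inputs, and 2129, 2058, 1190 and 1178 CPM with doxycycline, without it, in wild-type and in Dicer-null cells. The single libraries were highest, the inputs came next and the tagged IPs were lowest, with no overlap between these sets. In the 4 single libraries 98.3 to 98.7% of its reads, those with added bases included, began at base 1, and the printed 26 nt read alone stood at 334 to 866 CPM. That read was at 0 in all 4 IPs. With added bases mt-Ts2 had 5.42 and 3.26 CPM in the tagged IPs, 31.3 and 39.9 CPM in the untagged IPs, and 223 to 461 CPM in the inputs.

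mt-Te, the glutamate tRNA encoded on the other strand, had the most reads with added bases in 10 of the 12 libraries, and mt-Tm in both B inputs. It had 1284 and 1752 CPM in the tagged IPs, 4822 and 7171 CPM in the untagged IPs, 2554 and 993 CPM in the tagged inputs, 3262 and 1353 CPM in the untagged inputs, and 34.5 to 81.3 CPM in the single libraries. The untagged IPs were highest and did not overlap with any other group. The printed 39 nt read alone accounted for 513 to 2751 CPM in the 8 libraries. The single libraries, with no reads of 38 or 39 nt, could not hold it. Over its encoded bases mt-Te ranged from 11.2 to 240 CPM in the 8 libraries.

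mt-Tm, the methionine tRNA, was next by the mean with added bases, at 352 and 425 CPM in the tagged IPs, 1512 and 2600 CPM in the untagged IPs, 706 and 1263 CPM in the tagged inputs and 961 and 2522 CPM in the untagged inputs. Unlike mt-Te, it was higher in input B than in input A in both lines. Its exact reads were at 34.9 to 247 CPM in the 8 libraries and at 4.92 to 22.8 CPM in the 4.

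mt-Tw, the tryptophan tRNA, was high in the IPs. Its exact reads were at 128 and 44.6 CPM in tagged IP A and B, 323 and 22.7 CPM in untagged IP A and B, 15.8 and 0.754 CPM in tagged input A and B, and 17.2 and 0.967 CPM in untagged input A and B. Each IP was above its input, and code A was above code B in each group. The printed 18 nt read, which has the shortest length counted, stood at 65.9 and 25.4 CPM in the tagged IPs and at 77.5 and 3.51 CPM in the untagged IPs, but at 0.602 CPM or less in the 4 inputs and at 0 in the single libraries. With added bases mt-Tw had 324 and 101 CPM in the tagged IPs, 1747 and 80.8 CPM in the untagged IPs, 124 and 5.76 CPM in the tagged inputs and 108 and 3.45 CPM in the untagged inputs.

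Of the other tRNAs named by level, mt-Tv (valine) had 99.98 and 50.8 CPM of exact reads in the tagged IPs, 492 and 64.0 CPM in the untagged IPs, 353 and 40.9 CPM in the tagged inputs, 439 and 63.8 CPM in the untagged inputs and 25.9 to 53.2 CPM in the single libraries. mt-Tl2 (leucine) had 27.4 and 11.4 CPM, 88.2 and 14.1 CPM, 306 and 31.9 CPM, and 553 and 23.4 CPM in the same 4 groups and 1.98 to 3.25 CPM in the single libraries. For both, code A was above code B in every group, and their printed 50 nt reads, of the longest length in code A, were at 0 in code B, where no library held a read of 50 nt. In exact reads mt-Ts1 (serine) was highest in the single libraries, with 228, 260, 287 and 354 CPM with doxycycline, without it, in wild-type and in Dicer-null cells. It had 2.13 and 2.33 CPM in the tagged IPs, 14.1 and 8.34 CPM in the untagged IPs and 12.1 to 24.7 CPM in the inputs. With added bases the order was turned, with 105 and 32.8 CPM in the tagged inputs and 82.5 and 21.6 CPM in the untagged inputs. The IPs then had 2.19 to 21.7 CPM and the single libraries 0.343 to 0.682 CPM. mt-Ti (isoleucine) had 1.64 and 20.4 CPM in the tagged IPs, 11.9 and 11.2 CPM in the untagged IPs, 37.7 to 64.1 CPM in the inputs, and 95.9, 52.9, 124 and 58.7 CPM in the single libraries. In exact reads its tagged IPs thus lay on both sides of its untagged IPs. With added bases mt-Ti had 55.3 and 45.4 CPM in the tagged IPs and 138 and 155 CPM in the untagged IPs, without overlap. The inputs then had 119 to 224 CPM. The other 14 tRNAs ranged from 0.603 to 121 CPM of exact reads over the 12 libraries, with mt-Td and mt-Tt at these ends.

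At mt-Th, the histidine tRNA, reads began ahead of the annotated gene. Histidine tRNAs carry an additional G at their 5′ end, which the enzyme that charges them needs. The annotated mt-Th runs from base 11546 to 11612 of chromosome M, and 1 base parts it from mt-Nd4, which ends at base 11544. Over all libraries 5836 reads began with a G followed by the first 17 bases of mt-Th and 1 read with these bases alone. They were at 39.2 CPM with doxycycline, 37.3 CPM without it, 36.7 CPM in wild-type and 32.6 CPM in Dicer-null cells, and at 0.0332 CPM or less in the 8 other libraries. The base between mt-Nd4 and mt-Th is itself a G in all 15 reads that span both genes, so the G stands in the precursor too, and the reads begin 1 base before the annotated start. They are not among the exact reads above. With any of the 4 bases in front counted, 99.98% of mt-Th reads that began at base 1 or the base before it had the additional base, against 28.4% for mt-Tc, 27% for mt-Ta and less for the other 19 tRNAs. The most abundant read is shown with the G before the annotated start in capitals (M:11545-11584).
mt-Th: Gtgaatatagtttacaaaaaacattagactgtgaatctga

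The rRNAs were read mainly in the single libraries. mt-Rnr2, the RNA of the large ribosomal subunit, had 36 and 31.8 CPM in the tagged IPs, 227 and 144 CPM in the untagged IPs, 507 and 344 CPM in the tagged inputs, 559 and 393 CPM in the untagged inputs, and 2863, 3026, 2414 and 4224 CPM with doxycycline, without it, in wild-type and in Dicer-null cells. mt-Rnr1, that of the small subunit, had 33.7 and 23.5 CPM, 155 and 103 CPM, 105 and 41.6 CPM, and 91.1 and 52.5 CPM in the 4 replicated groups, and 1362, 1483, 1056 and 1838 CPM in the single libraries. The tagged IPs were lowest for both. Per kb of gene, mean levels in the tagged IPs were 21.4 CPM for mt-Rnr2 and 29.9 CPM for mt-Rnr1, and in the untagged inputs 301 and 75.2 CPM.

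Both ends of mt-Rnr2 stood out from its length. Reads from base 1 were 14.6 to 23.0% of its reads in the single libraries and 4.58 to 44.2% in the 8 others. Those that ended at base 24 or 25 (to base 24: ACTaatcctagccctagccctaca) had 0.365 and 0.764 CPM in the tagged IPs, 2.48 and 7.68 CPM in the untagged IPs, 68.9 and 69.6 CPM in the tagged inputs, 75.1 and 42.6 CPM in the untagged inputs, and 88.3 to 135 CPM in the single libraries. They were 10.9 to 20.2% of mt-Rnr2 reads in the inputs, 1.02 to 5.32% in the IPs and 2.66 to 4.45% in the single libraries, so inputs and IPs did not overlap. Reads that ended at its last base, 1582, were at 8.95 and 6.15 CPM in the tagged IPs, 64.9 and 26.2 CPM in the untagged IPs, 107 to 167 CPM in the inputs and 187 to 237 CPM in the single libraries. Reads across the border of 2 neighbouring genes were rare, at 4.12 to 79.9 CPM, and 67.4 to 95.8% of them in each library crossed from mt-Rnr2 into mt-Tl1, the leucine tRNA that follows it. Of these, 60.9 to 97.9% reached just 1 base into mt-Tl1. In such reads the encoded base cannot be told from an added base of the same kind, so they need not come from uncut precursor.

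Among the mRNAs, mt-Co1, a subunit of cytochrome c oxidase, had the most exact reads in each library; with reads of another base at base 3 counted, mt-Nd3 was above it with doxycycline. mt-Co1 had 31.8 and 34.7 CPM in the tagged IPs, 161 and 248 CPM in the untagged IPs, 286 and 72.3 CPM in the tagged inputs, 233 and 77.7 CPM in the untagged inputs, and 138, 248, 120 and 292 CPM in the single libraries. A single fragment made up much of that: bases 826 to 861 (M:6153-6188), shown here in 1 form as encoded and in 1 with CCA behind it.
mt-Co1, bases 826 to 861, chrM 6153 to 6188, + strand: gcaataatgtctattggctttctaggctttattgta
mt-Co1, bases 826 to 861, with CCA, chrM 6153 to 6188, + strand: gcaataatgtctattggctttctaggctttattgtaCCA
It stood at 2.62 and 18.2 CPM in the tagged IPs, 27.1 and 138 CPM in the untagged IPs, 168 and 34.2 CPM in the tagged inputs and 130 and 34.1 CPM in the untagged inputs, or 8.22 to 58.7% of mt-Co1 reads. The single libraries held 1 such read in all, but had reads that began at the same base and ended at base 855, at 3.50 to 23.7 CPM. In code A the IPs were below their inputs for this fragment. In code B the untagged IP was above its input and the tagged IP below. Reads of any first base that carried CCA right after base 861 numbered 2213 over all 12 libraries; the printed form has 39 nt, a length of which the single libraries hold no read. Among unencoded tails of 3 bases on the non-tRNA genes, CCA was more frequent than AAA in 7 of the 8 IP and input libraries (23.0 to 56.9% against 12.6 to 24.3% over the 8) and less frequent in each of the 4 single libraries (10.2 to 26.2% against 34.5 to 40.4%). mt-Co3, another subunit of the same enzyme, held the other main site, base 354, with 1062 reads in 11 libraries (M:8933-8960, the encoded bases of which also match the pseudogene Gm28437 on chromosome 1). The fragments of mt-Co1, mt-Rnr2, mt-Co3 and mt-Th were singled out after their values were seen.
mt-Co3, bases 327 to 354, with CCA, chrM 8933 to 8960, + strand: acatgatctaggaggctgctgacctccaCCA

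The other mRNAs had fewer reads. mt-Co2, also of cytochrome c oxidase, had 16.6 and 14.4 CPM in the tagged IPs, 95.4 and 52.8 CPM in the untagged IPs, 7.54 to 24.1 CPM in the inputs, and 74.5, 97.4, 51 and 130 CPM in the single libraries. Here the untagged IPs were above all 4 inputs. mt-Co3 had 10.2 and 5.81 CPM in the tagged IPs, 44.4 and 22.5 CPM in the untagged IPs, 15.7 to 38.3 CPM in the inputs and 50.6 to 104 CPM in the single libraries, and mt-Nd1, of NADH dehydrogenase, had 6.69 and 3.26 CPM, 42.7 and 27.3 CPM, 5.76 to 17.2 CPM, and 36.1 to 68.2 CPM. The 9 remaining mRNAs ranged from 0.646 CPM (mt-Atp8 in tagged input B) to 138 CPM (mt-Nd3 in Dicer-null cells). Per kb of gene, mt-Co2 and mt-Co1 were highest in the tagged IPs, at 22.7 and 21.5 CPM per kb, and mt-Nd6, the mRNA encoded on the other strand, was lowest at 1.38.

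The tagged IP was set against the untagged IP to ask what came down with the tag. All 37 genes passed the low-count filter in the edgeR fit of 6245 features (the quasi-likelihood test, Benjamini-Hochberg adjusted p under 0.05, fold changes per library total). With the tag 0 of the 37 were higher, where 9.7% of all features were, and 29 were lower, where 73.9% of all features were: the members' share of lower calls, like their median log2 fold change of -2.09 against -2.38 for all features, was near the background. A feature could pass the filter through its reads in the untagged IPs alone, and how far this shaped the background was not tested. Both rRNAs, all 13 mRNAs and 14 of 22 tRNAs were lower. The other 8 tRNAs, mt-Tf, mt-Ti, mt-Ty, mt-Th, mt-Tw, mt-Tn, mt-Tl2 and mt-Tr, had log2 fold changes of -0.04 to -1.55 and did not pass. These tests take exact reads only. With the reads of added bases counted in, mt-Ty (-1.85), mt-Tn (-1.81), mt-Tl2 (-1.82) and mt-Tr (-1.47) passed as lower (edgeR adjusted p = 0.0133 to 0.0408). mt-Ti, mt-Th and mt-Tw stayed negative and mt-Tf turned to 0.82, and none of these passed. With TMM factors, which set the middle of the features near 0, none of the 37 was called in either direction, and the members' median was -0.01 against -0.15 for all features, of which 794 were then higher and 32 lower.

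The largest decreases were those of 3 subunits of NADH dehydrogenase. mt-Nd6 had 0.730 and 0.698 CPM in the tagged IPs and 3.95 and 7.85 CPM in the untagged IPs, and fell by 3.04 on the log2 scale (SE 0.84, adjusted p = 0.00346 in edgeR). mt-Nd1 fell by 2.82 on the log2 scale (SE 0.78, adjusted p = 0.00365) and mt-Nd4l, with 2.92 and 1.43 CPM against 12.9 and 14 CPM, by 2.64 (SE 0.78, adjusted p = 0.00463). In none of the 3 did the 2 groups overlap. Calls depended on single libraries of these groups: 9 genes were lower without tagged IP A, 0 without tagged IP B and 17 without untagged IP A, where 1 was higher.

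**Figure D3:**
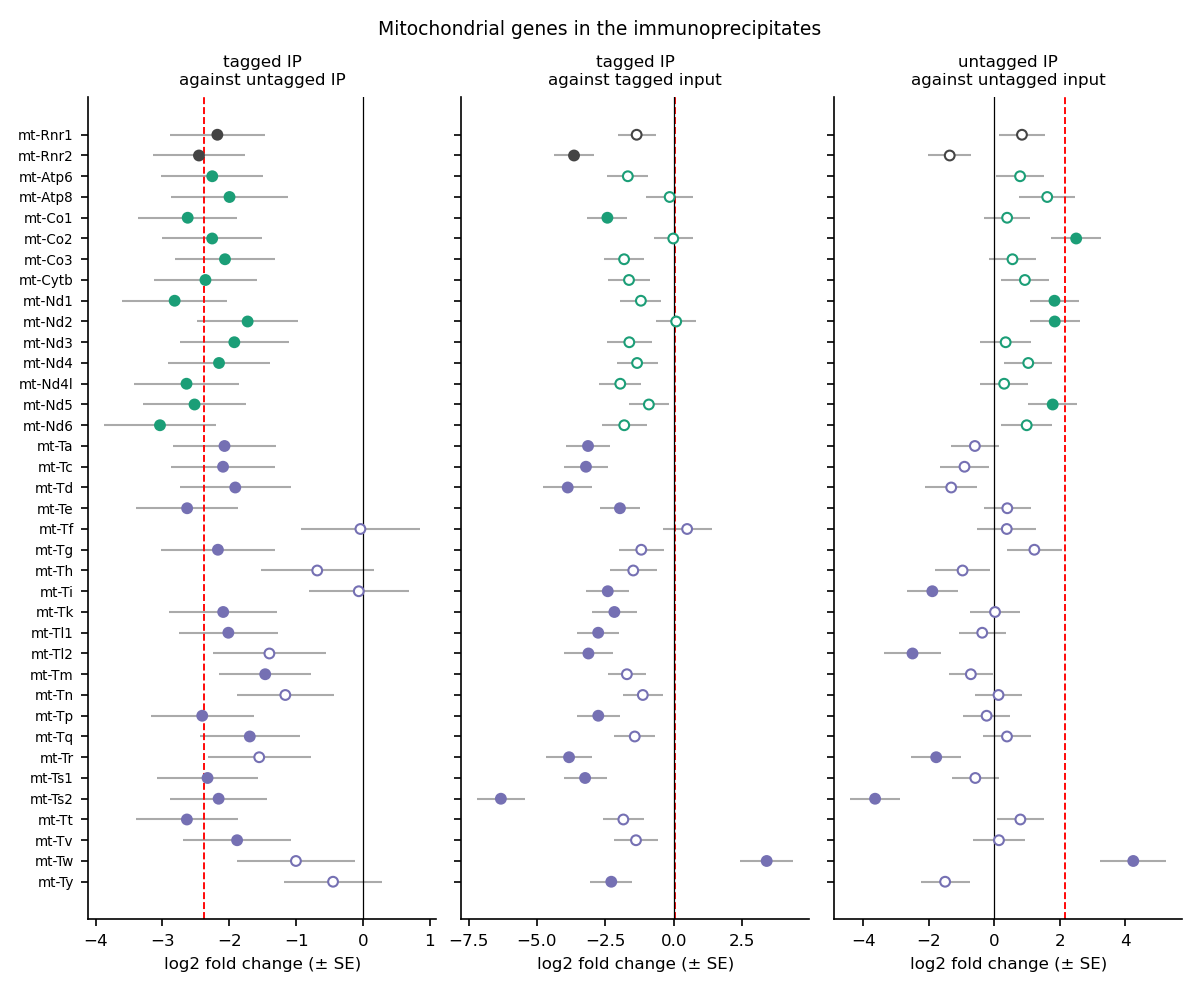
Log2 fold change (± SE) of each mitochondrial gene in 3 comparisons, grey for rRNAs, green for mRNAs and purple for tRNAs; filled points passed the edgeR test and the red dashed line is the median of all 6245 features. In the left panel the genes lie about the red line at -2.38, in the middle panel most lie to the left of a red line at 0.05, and in the right panel most lie to the left of one at 2.15.

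Against its own input the tagged IP was poor in mitochondrial RNA. The plot of fold changes shows 15 of 37 genes lower, where 10.2% of all features were, and 1 higher, where 11.2% were; the members' median log2 fold change was -1.81 against 0.05 for all features. Of the classes, 13 of 22 tRNAs, 1 of 2 rRNAs (mt-Rnr2, -3.65, SE 0.72, edgeR adjusted p = 4.9e-05) and 1 of 13 mRNAs (mt-Co1, -2.43, SE 0.73, adjusted p = 0.00857) were lower. mt-Ts2 had the largest decrease, -6.32 (SE 0.87, adjusted p = 3.7e-07), followed by mt-Td (aspartate), with 1.28 and 1.63 CPM against 34.2 and 8.88 CPM in the inputs, at -3.88 (SE 0.89, adjusted p = 0.000401), and mt-Tr (arginine), with 0.974 and 1.66 CPM against 23.1 and 14.9 CPM, at -3.83 (SE 0.83, adjusted p = 0.000185). The gene that was higher was mt-Tw, at 3.38 (SE 0.97, adjusted p = 0.00528). With the reads of added bases counted in, 12 tRNAs were lower and mt-Tw, at 2.03, did not pass (adjusted p = 0.137). With TMM factors 11 genes were lower and 0 higher (median of all features -0.09), and with each distinct sequence counted once 2 were lower. These counts, and the next ones without 1 library, are not set beside the share of all features called under the same setting. Leaving out tagged IP A gave 6 lower and 0 higher genes, leaving out tagged IP B 9 and 1, and leaving out tagged input A 5 and 2.

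The untagged IP, in which the antibody has no tag to hold, shows what came down without one. Against its input 5 of 37 genes were higher, where 62.6% of all features were, and 4 lower, where 2.35% were, with a median log2 fold change of 0.35 for the members and 2.15 for all features. The higher genes were mt-Tw (4.25, SE 1.01, edgeR adjusted p = 0.00345), mt-Co2 (2.50, SE 0.75, adjusted p = 0.00822), mt-Nd2, mt-Nd1 and mt-Nd5, and the lower ones mt-Ts2 (-3.64, SE 0.76, adjusted p = 0.00152), mt-Tl2, mt-Ti and mt-Tr. mt-Nd2 had 22.8 and 25 CPM in the IPs and 9.24 and 4.01 CPM in the inputs (1.85, SE 0.76, adjusted p = 0.0318), but -0.11 with TMM factors and -0.01 in DESeq2. mt-Ti was at -1.89 (SE 0.77, adjusted p = 0.0312). mt-Tl2, at -2.49 (SE 0.88, adjusted p = 0.0163), was at 1.13 without untagged input A, so its decrease rested on that library. With the reads of added bases counted in, mt-Ts2 remained lower (-3.44), while mt-Tl2 (-1.21, adjusted p = 0.144), mt-Ti (-0.44, adjusted p = 0.535) and mt-Tr (-0.85, adjusted p = 0.236) did not pass. With TMM factors, which move the median of all features from 2.15 to -0.02 and call 45 of all features higher and 543 lower, 10 genes were lower and 0 higher. The 9 calls became 4 without tagged IP A, tagged IP B or untagged input A, and 2 without untagged IP A or untagged input B. In exact reads per library total mt-Tw was thus higher and mt-Ts2 lower in the IPs of both lines, set against separate inputs. The mt-Tw calls did not hold with TMM factors in either line, nor with added bases in the tagged line. Input B of each line held only 14 exact mt-Tw reads.

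Between the inputs of the tagged and the untagged line no gene of the 37 passed in either direction, as no feature did (0%). At an unadjusted p under 0.05 there were 0 of the 37 and 99 of the 6245 features, and TMM and DESeq2 called none of the 37 either. The gain of IP over input in the tagged line, less that in the untagged line, was tested as 1 coefficient. Of the 37 genes 0 were higher, where 3.83% of all features were, and 2 lower, where 9.08% were, with medians of -2.31 for the members and -2.19 for all features. With the title code as a replicate block 24 were lower, where 50.9% of all features were, but the labels do not say that codes pair samples. Without the block the 2 lower genes were mt-Nd1 (-3.05, SE 1.06, edgeR adjusted p = 0.0488) and mt-Co1 (-2.83, SE 1.0, adjusted p = 0.0498). Neither passed with TMM factors or DESeq2, or when either tagged IP, tagged input A, untagged IP A or untagged input B was left out, and 9 genes were lower without untagged IP B.

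Nuclear genes of the same pathway were set beside them. Of 99 genes for nuclear subunits of the respiratory chain 46 passed the filter, and 43 of these were lower in the tagged than in the untagged IP (73.9% of all features), 1 was lower in the tagged IP than in its input (10.2% of all features), and 29 were higher in the untagged IP than in its input (62.6% of all features). Their median log2 fold changes in these 3 comparisons were -2.62, -0.48 and 2.01, beside -2.09, -1.81 and 0.35 for the mitochondrial genes. Of 31 nuclear genes that transcribe, cut and modify mitochondrial RNA 9 passed the filter, and 9, 0 and 8 of them were called in the same 3 comparisons and directions, with medians of -2.64, -0.33 and 2.27. With TMM factors 1, 3 and 0 of the 46 respiratory chain genes were called in the 3 comparisons, each of them lower, and 0 of the 9 others. The share of all features under that setting is not set beside these counts. Against the inputs the nuclear lists thus lay nearer to the median of all features (0.05 and 2.15) than the mitochondrial genes did. Nuclear genes could also pass the filter through the untagged IPs alone, so those that passed need not stand for the whole lists.

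At 2 places the mitochondrial genes read differently in the TT lines than in the wild-type and Dicer-null cells. At base 3 of mt-Nd3, position 9461 of chromosome M, the annotation has T. The T3C form (positions counted from the first base of the gene) was carried by all of the 2 to 20 reads over the base in each of the 8 IP and input libraries, by 99.95% of 4313 reads with doxycycline (exact Clopper-Pearson 95% interval 99.83 to 99.99%) and by 99.83% of 2875 reads without it. In wild-type cells it was carried by 0.173% of 2308 reads (0.0472 to 0.443%) and in Dicer-null cells by 0.232% of 9483 reads. The 2 forms of the same 27 nt fragment (M:9459-9485) are shown with base 3 in capitals.
mt-Nd3 as annotated, chrM 9459 to 9485, + strand: atTaacctgtacactgttatcttcatt
mt-Nd3 with the other base, chrM 9459 to 9485, + strand: atCaacctgtacactgttatcttcatt
All reads with C also match Gm28438 exactly, an annotated unprocessed pseudogene on chromosome 1 (24612775 to 24613119), so for them the 2 genes cannot be told apart by sequence. Reads with the annotated T did not match it over the printed bases. Without and with the C reads mt-Nd3 had 15.7 and 171 CPM with doxycycline, 12.7 and 121 CPM without it, 78.6 and 78.7 CPM in wild-type and 138 and 139 CPM in Dicer-null cells.

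**Figure D4:**
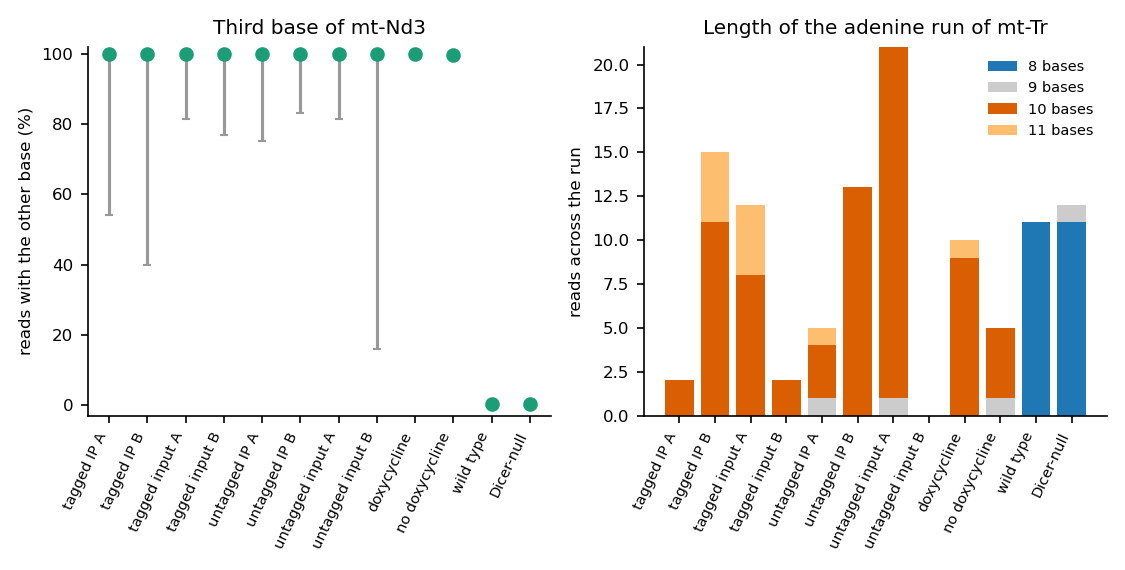
Left: percent of reads over base 3 of mt-Nd3 that carry the base other than the annotated one, with exact 95% intervals, in each of the 12 libraries. Right: reads across the adenine run of mt-Tr by the length of the run. The 10 libraries of the TT lines stand near 100% on the left, and all but untagged input B, which has no such read, hold runs of 9 to 11 on the right; the wild-type and Dicer-null libraries stand near 0% and hold runs of 8 or 9.

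The second place is a run of adenines in mt-Tr, a stretch known to vary in length among inbred mouse strains. The annotated gene has 8 adenines at its bases 14 to 21 (9821 to 9828 of chromosome M), in capitals here.
mt-Tr, bases 8 to 27, chrM 9815 to 9834, + strand: tagtttAAAAAAAAttaatg
In the 10 libraries of the TT lines 85 reads with 8 or more adenines crossed the run, 0 with 8, 3 with 9, 72 with 10 and 10 with 11. In the wild-type and Dicer-null libraries 23 such reads crossed it, 22 with 8 and 1 with 9. The plot of both places shows the libraries parting the same way in each. Reads with longer runs are not exact matches, so exact mt-Tr levels do not compare between these sets of libraries.

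Substitutions inside tRNAs were concentrated at few bases. Reads with 1 substitution were 23.7 to 44.6% as many as the exact reads in the 8 libraries, with 38.9 to 54.9% of the substitutions at the first base of the read, and 12.9 to 18.2% as many in the 4, with 2.80 to 3.89% at the first base. Away from the ends of reads, 1403 tRNA bases had 100 reads over them in some library, and 13 of them carried another base in 5% or more of reads. Base 9, which the Trmt10c complex is known to methylate in many mitochondrial tRNAs, was among these in 7 of 18 tRNAs. The base 2 before the anticodon was in 2 of 22, the base after it in 2 of 22, and the remaining bases in 2 of 1341; these classes were drawn up after the values were seen. The highest were mt-Tn A9G, with 41.8 to 68.7% of reads in the 10 libraries with enough depth, and mt-Tl1 G28T, with 24.3 to 56.8% in the 5 such libraries among the IPs and inputs and 0.862 and 0.990% in wild-type and Dicer-null cells. Next came mt-Ts1 C29T at 28.8 to 45.2% in 3 single libraries, mt-Tv A9T at 0.412 to 28.9%, mt-Tl1 G28A at up to 24.3%, mt-Tn A9T at 10.1 to 19.0%, mt-Tt C29T at 1.28 to 18.5% and mt-Ty G9T at 2.80 to 12.2%. Other bases at base 9 thus appeared in libraries of both protocols and of all lines.

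The 4 single libraries have no replicates, so their differences are ratios of CPM with exact binomial 95% intervals (Clopper-Pearson), which cover counting error only, and carry no test. In Dicer-null over wild-type cells the classes differed: the mRNAs were 2.13 times as high (2.10 to 2.17), the rRNAs 1.75 times (1.74 to 1.76), the exact tRNA reads 0.997 times (0.988 to 1.01) and the tRNA reads with added bases 0.636 times (0.617 to 0.656). Hairpin reads took 1.42% of the Dicer-null and 21.1% of the wild-type library. Per read outside hairpins the ratios were 1.71, 1.40, 0.798 and 0.509. A fold of 2 or more upward was reached by 8 of the 37 genes, where 29.8% of 4487 features with 100 reads in 1 of the 2 libraries reached it, and by 2 downward, where 7.89% did. The median ratio was 1.59 for the members and 1.60 for all features. Per read outside hairpins 4 of the 8 stayed past the fold (mt-Nd4, mt-Nd5, mt-Co2 and mt-Cytb) and both of the 2. For all features the share on that scale was not computed. The 8 were all mRNAs: mt-Nd4 (2.84), mt-Nd5 (2.64), mt-Co2 (2.55), mt-Cytb (2.50), mt-Co1 (2.44), mt-Atp6 (2.22), mt-Co3 (2.05) and mt-Nd4l (2.05). The 2 were the tRNAs mt-Tm (0.458, 0.414 to 0.506) and mt-Ti (0.475, 0.455 to 0.496).

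**Figure D5:**
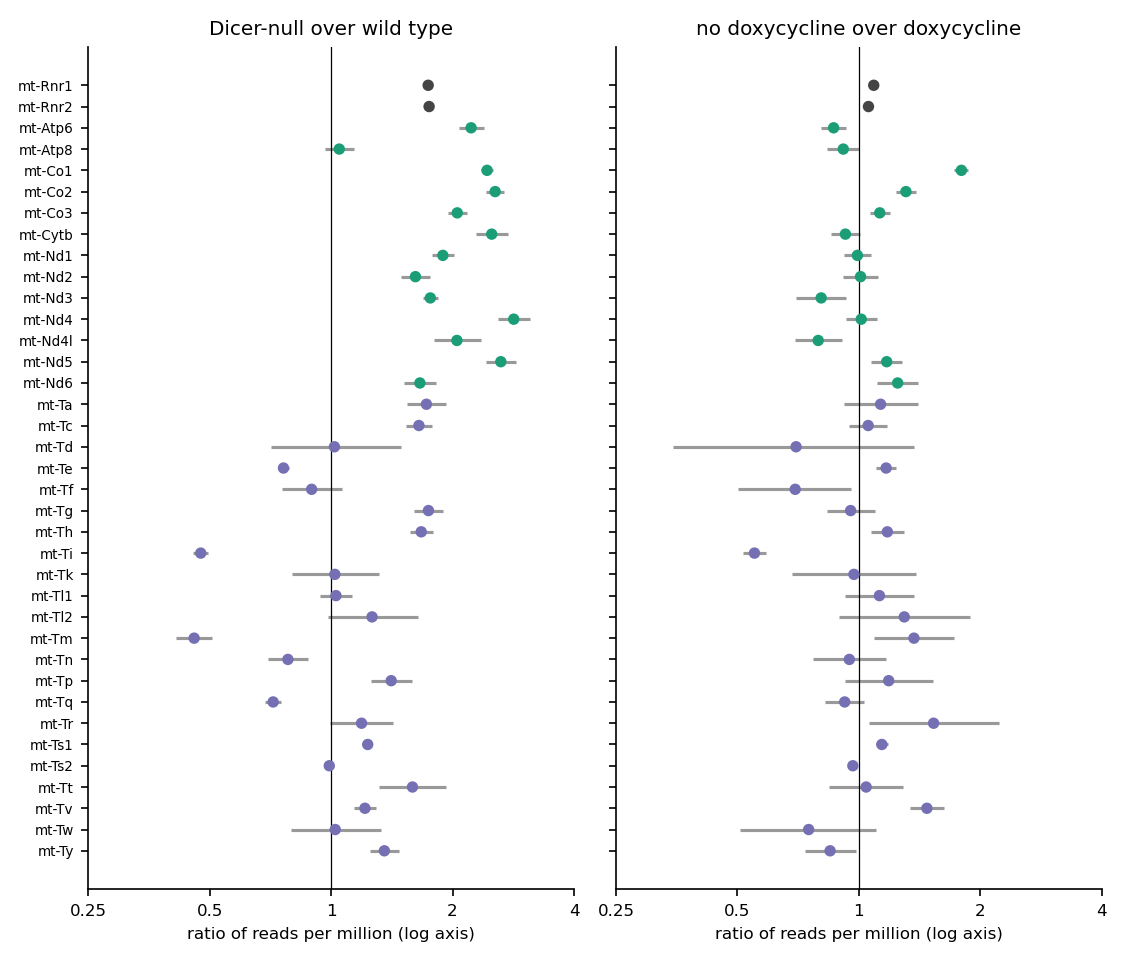
Ratio of CPM of each mitochondrial gene (log axis) in Dicer-null over wild-type cells (left) and in TT-FHAgo2 cells without over with doxycycline (right), with exact binomial 95% intervals for counting error; grey for rRNAs, green for mRNAs and purple for tRNAs. On the left the mRNAs lie from 1.05 to 2.84 and the tRNAs from 0.458 to 1.74, and on the right all genes lie from 0.551 to 1.80.

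In TT-FHAgo2 cells without over with doxycycline the same genes lay closer to 1. The plot of single-library ratios shows none of the 32 genes with enough reads past the fold of 2 in either direction, where 3.12% of 1664 features were past it upward and 15.4% downward. The lowest ratio of these was that of mt-Ti, at 0.551 (0.516 to 0.588), and the highest that of mt-Co1, at 1.80 (1.73 to 1.87). The class ratios were 1.21 for the mRNAs, 1.07 for the rRNAs, 0.982 for the exact tRNA reads and 1.12 for tRNA reads with added bases. Dicer-null over wild type and this pair share no library.

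TT-FHAgo2 cells without doxycycline differed from wild-type cells by a fold of 2 upward in 4 of 33 genes, where 15.4% of 1811 features did, and downward in 9, where 21.3% did. The 4 were the mRNAs mt-Cytb (2.44), mt-Nd4 (2.10), mt-Co1 (2.07) and mt-Nd5 (2.01). Of the 9 downward, 8 were tRNAs, led by mt-Tq (glutamine) at 0.254 and mt-Tm at 0.296, and the ninth was mt-Nd3 at 0.162, whose exact reads differ by the base described above. This comparison shares a library with each of the other pairs, and line, genotype and doxycycline history cannot be told apart in it. Hairpin reads took 1.3% of the first and 21.1% of the second library, and per read outside hairpins 0 of the 33 genes were past the fold upward and 12 downward. The share of all features past the fold on that scale was not computed, so these counts do not set the members apart.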

How the data were processed

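The deposited files list distinct read sequences with read counts, deposited as whole numbers without normalisation; trimming and mapping tools are not given in the sources used here. A total of 14231291 distinct sequences of 18 nt or more were matched to the 141767 transcripts of GENCODE M21 (GRCm38), sense and over their whole length, exactly, with 1 substitution, or with C, CC or CCA after a tRNA's last base. Without a genome, bases outside annotated transcripts were not searched. CPM is the count per 1000000 reads of the file. A single edgeR model (version 4.0.16 under R 4.3.3; quasi-likelihood, library totals, filterByExpr) took all 8 replicated libraries, and DESeq2 1.42.0 was an alternative. On simulated counts with an assumed dispersion of 0.1 the fit for tagged against untagged IP recovered 39 of 100 4-fold and 2 of 100 2-fold changes, with 1 false call of 6045. Those 6045 of 6245 features were left unchanged, whereas 73.9% of features were called lower in the data. The rates need not hold there. Genes were named by level within class (8 tRNAs, 4 mRNAs, both rRNAs) and by the 3 largest calls per direction. Members, lists and rules were chosen with earlier results of these data known. Further tools were Python 3.11.15, numpy 2.4.6, pandas 2.3.3, scipy 1.17.1, numba 0.67.0 and matplotlib 3.10.9.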

Additional observations from a re-analysis of the deposited data

Results flagged for a closer look

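The gain of IP over input was lower in the tagged than in the untagged line for mt-Nd1, by a tested difference of -3.05 (log2), and for mt-Co1, by one of -2.83. For mt-Nd1 the IPs of the untagged line were above both of their inputs and those of the tagged line were within or below theirs.

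Reads on the strand opposite to a mitochondrial gene are in no comparison above. They ranged from 45.5 CPM in tagged IP B to 334 CPM in untagged IP A. Reads that began at base 15356, opposite mt-Tp (the proline tRNA), made up 42.0 to 54.2% of them in the IPs and 2.11 to 12.7% in the other libraries. This base follows the end of mt-Tt, and reads opposite mt-Tp with another first base are not in these shares. The reads from base 15356 stood at 27.4 and 22.5 CPM in the tagged IPs, 181 and 114 CPM in the untagged IPs, 4.97 to 12 CPM in the inputs and 4.65 to 25.2 CPM in the single libraries. The most abundant of them is shown; it has the longest length of code A.
opposite mt-Tp, chrM 15356 to 15405, + strand: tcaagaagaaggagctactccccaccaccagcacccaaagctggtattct
The untagged IPs were highest and each IP was above all 4 inputs.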

How the results depend on the processing

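Of the results for single genes under alternatives, 185 kept their side of the threshold, 80 no longer passed and 3 turned: mt-Nd2 in the untagged IP against its input (-0.11 with TMM factors, -0.00563 in DESeq2) and mt-Tl2 there (-4.35 to 1.13 without 1 library, the latter without untagged input A). The 29 genes called in tagged against untagged IP became 0 with TMM factors, DESeq2, a library size without hairpin reads, or each distinct sequence counted once, and 0 to 29 without 1 library. The 16 of tagged IP against input became 8 without hairpin reads in the library size, 2 with distinct sequences once, and 6 to 18 without 1 library. The 9 of untagged IP against input became 4 with no filter on low counts, 0 with distinct sequences once, and 2 to 8 without 1 library. The 2 genes of the gain became 0 with TMM factors, DESeq2, no hairpin reads, no filter, reads of 20 nt or more and distinct sequences once, 1 with substituted reads added, 4 with added C, CC or CCA counted, and 0 to 9 without 1 library. With the title code as a replicate block, 29 genes were lower in tagged against untagged IP (81.4% of all features), 1 higher and 20 lower in tagged IP against input (13.2% and 12.7%), 8 higher and 5 lower in untagged IP against input (77.5% and 4.85%), 0 between inputs, and 24 lower in the gain (50.9%); the counts called were 29, 21, 13, 0 and 24. Differences between codes A and B correlated between groups by 0.13 to 0.73 across 1880 features and by 0.33 to 0.88 across 36 mitochondrial genes. The labels do not say that codes pair samples. Where no share of all features stands beside a count, here or above, that count describes the members only.

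The share in tagged over untagged IP went from 0.274 to 0.546 without hairpin reads and 0.794 with distinct sequences once (0.231 to 0.338 without 1 library), and in tagged IP over input from 0.246 to 0.534, 0.674 and, with added bases counted, 0.455 (0.167 to 0.469). The untagged IP over its input went from 0.863 to 1.42 with added bases, 1.03 without untagged IP B and 1.60 without untagged input A (0.590 to 1.60). The tagged over the untagged input went from 0.962 to 0.850 with added bases, 1.06 with distinct sequences once, 1.42 without tagged input B and 1.79 without untagged input A (0.505 to 1.79). The cause of these shifts was not tested. Groups of 2 libraries share 1 estimate of the spread, and a group left with 1 library is assumed to vary like the others.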
